A study of Homo sapiens with 4 samples.

Results

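The genes described here encode the cytosolic factors that start, extend and end protein synthesis. They were chosen by name, from the protein-coding symbols that begin with EIF or EEF and a digit together with PABPC1, PABPC4, TPT1, ETF1 and GSPT1. The eIF2 alpha kinases, the eIF4E-binding proteins and EIF4E itself were left out. The rule itself uses names and no measured value, though it was set with earlier results of these data known. The rule found 57 genes among the 25582 rows of the expression table, 1 row for each gene. A further 10 genes of the RefSeq gene table carry names that meet the rule and were not analysed here, among them EEF1A1, EIF4A1, EIF4G3, EIF3C and PABPC1.

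Expression was measured on 4 arrays of MOLM-14 cells, a human acute myeloid leukemia line with an internal duplication in the receptor kinase FLT3 and a KMT2A fusion. The 2 control arrays came from cells without rapamycin and the 2 rapamycin arrays from cells given 10 nM for 24 hours. The growth and treatment protocols in the labels also speak of doxycycline-inducible hairpin RNAs, scrambled or against PIM2, and the labels do not settle whether these cultures carried one. The arrays are called biological replicates, and nothing further says that they came from separate cultures, so a p-value here weighs the difference only against how far these arrays scatter, some of which may be technical. Of the 12 markers fixed for leukemic cells of monocytic kind, 10 had a row and 9 of these lay above the filter minimum of 4.86 log2 units. LYZ stood at 11.70 to 11.95 and FLT3 at 10.48 to 10.84 log2 units, while CD14 was low, at 3.63 to 3.97. Of 17 measured markers of other cell types, 10 lay below that minimum. PAX5, at 7.03 to 7.16, and KRT8, at 6.46 to 7.60, were among the 7 above it. The myeloid marker CSF1R read 6.96 to 7.39. No marker that was tested passed the test used for the factors. Over all rows, the correlation was 0.9957 within the control pair, 0.9940 within the rapamycin pair, and 0.9924 to 0.9943 between the groups. Rapamycin replicate 1 correlated more with each control (0.9943 and 0.9941) than with rapamycin replicate 2.

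Protein synthesis begins when eIF2 brings the initiator tRNA to the small ribosomal subunit, eIF3 holds the assembly together, and the eIF4 factors recruit the mRNA by its cap and poly(A) tail. eIF5B then joins the large subunit, eEF1 delivers aminoacyl-tRNAs, eEF2 moves the ribosome along, and the release factors end the chain. Rapamycin blocks mTORC1, which controls this machinery mostly through phosphorylation and through the translation of mRNAs that begin with a terminal oligopyrimidine (TOP) tract, a C followed by a run of pyrimidines at the first transcribed base. Many elongation factors and some eIF3 subunits are encoded by such mRNAs. The arrays read transcript abundance and not translation, and since the arrays were scaled to one another, a change in total RNA per cell would not be seen.

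The start sites are shown because the TOP tract is the sequence through which mTORC1 is known to act on these mRNAs. The stretches run from 10 bases before to 20 bases after the transcript start given by RefSeq on GRCh38.p14, 5′ to 3′ on the coding strand, for the TOP-encoded members that have an entry and for EIF3D and EIF2B2, which are described further on. Capitals mark an unbroken run of C and T that opens with a C at most 5 bases from the start and goes on for at least 4 more pyrimidines, searched on the coding strand only.
EEF2 (chr19:3985444-3985473, minus strand): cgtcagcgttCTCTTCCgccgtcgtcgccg
TPT1 (chr13:45341164-45341193, minus strand): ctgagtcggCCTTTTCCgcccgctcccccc
EIF4B (chr12:53006446-53006475, plus strand): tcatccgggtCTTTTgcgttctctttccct
EIF3F (chr11:7987327-7987356, plus strand): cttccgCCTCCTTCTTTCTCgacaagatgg
EEF1B2 (chr2:206159599-206159628, plus strand): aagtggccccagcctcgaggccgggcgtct
EEF1G (chr11:62573872-62573901, minus strand): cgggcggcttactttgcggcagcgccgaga
EIF3D (chr22:36529147-36529176, minus strand): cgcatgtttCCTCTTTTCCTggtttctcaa
EIF2B2 (chr14:75002911-75002940, plus strand): cgcccgccccggaagtgcaaactgtgtggt

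The tract of EEF2 opens at the first transcribed base and is 7 bases long, and that of EIF3F is the longest of those printed, at 14 bases. No such run was found within these bases for EEF1B2, EEF1G or EIF2B2, which says only that the letters are not in the window at the single start that RefSeq lists. Promoter entries matched 45 of the 57 genes, and 18 of them (40%) held such a run, against 22.1% of 15843 protein-coding genes. EIF3D, EIF2S3, EIF3K and EIF3M, which were not on the TOP list used here, were among the 14 other members that held it. The search also took runs that end before the start, as in EEF2K, EIF1 and EIF5A2. Such a run is not in an mRNA that begins there.

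No translation factor passed the test in either direction. Of the 57 genes, 55 passed the filter on low values and were tested, 0 were called higher and 0 lower at an adjusted p under 0.05 in the limma fit over all 14635 genes. In that fit 1.28% of all genes tested were called, 0.417% higher and 0.861% lower. At an unadjusted p under 0.05, limma gave 8 members, 7 higher and 1 lower. Over all genes tested 15.4% passed this looser threshold, 7.22% higher and 8.23% lower. The median log2 fold change of the 55 members was 0.03, beside 0.01 over all genes tested, and 29 members had positive and 26 negative values. The log2 fold changes of all 55 lay within 0.3 of 0, as did those of 89.2% of all genes tested. The 95% interval excluded a change of 1.5-fold or more in either direction for 54 of the 55. It did so for 12887 of the 14635 genes tested. The exception among the members was EIF1AX, whose interval ran from -0.09 to 0.65.

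**Figure D1:**
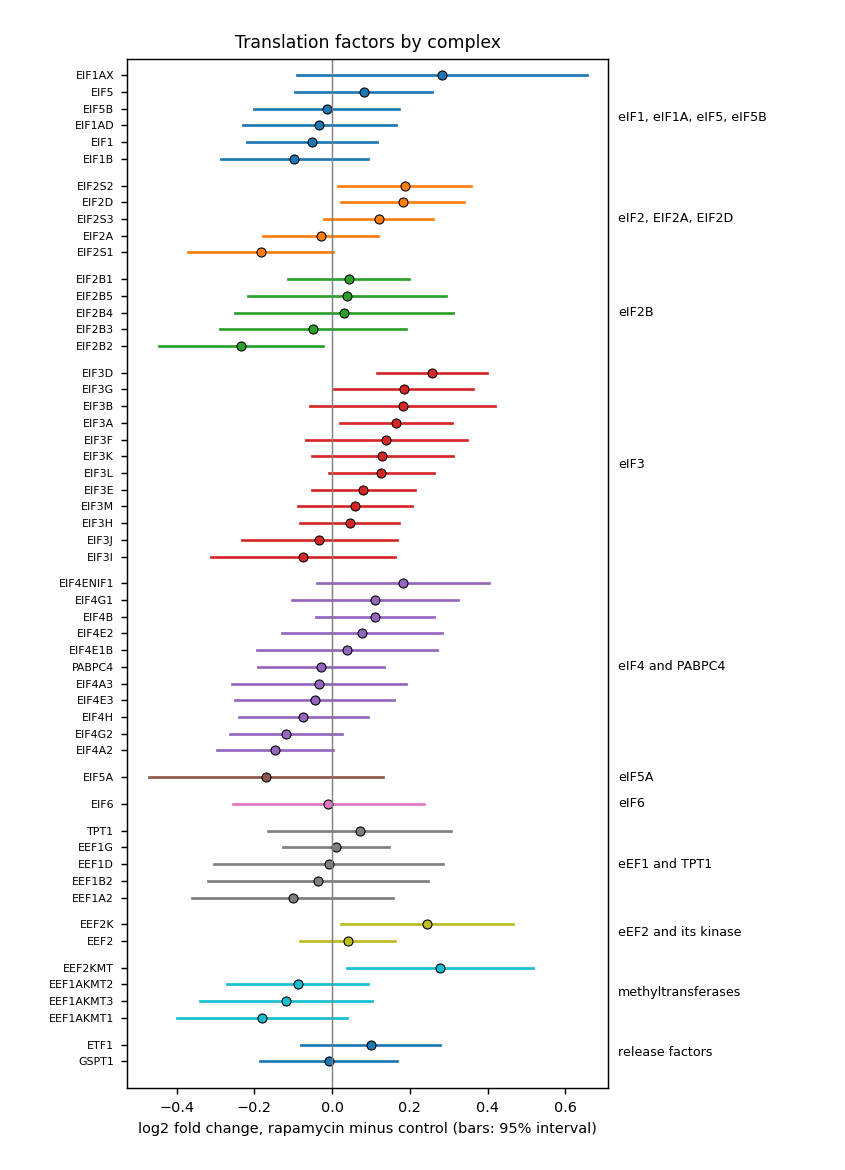
Log2 fold change of 54 tested translation factors, rapamycin minus control, grouped by complex, with points for the limma estimate and bars for its 95% interval, n = 2 arrays a group. No member passed the adjusted test, and 10 of the 12 eIF3 subunits lie to the right of 0. Over all genes tested, 7790 of 14635 had positive values. The Y-linked EIF1AY was tested and is not drawn.

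In 26 of the 55 tested members both rapamycin arrays lay outside the range of both controls, 18 above and 8 below. Among all genes tested the groups did not overlap in 46.8%, with rapamycin above in 24.9% and below in 21.8%. The members' shares were 47.3%, 32.7% and 14.5%. The total is close to that of all genes, with more of it above. These counts used the values as deposited. With the arrays centred on their median, the median log2 fold change of the members was -0.00083 in place of 0.03.

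The eIF3 complex, the scaffold that binds the small subunit and links it to eIF4G, held the member with the lowest adjusted p. It had 12 subunits tested, 0 called, 10 positive and 2 negative, and a median log2 fold change of 0.13. Over all genes tested, 7790 log2 fold changes were positive and 6845 negative. Both rapamycin arrays lay above both controls for 7 of the 12 and below for 0, beside the 24.9% above and 21.8% below of all genes tested. EIF3D, a subunit that can itself bind the cap of some mRNAs, stood at 10.93 and 10.95 in the control arrays against 11.17 and 11.22 in the rapamycin arrays. The groups did not overlap, and the gaps between arrays of a group were 0.02 and 0.05. The difference of 0.26 (SE 0.06, 95% interval 0.11 to 0.40, adjusted p = 0.0931, limma), or 1.19-fold, did not pass. Over the 13 alternative settings its adjusted p ran from 0.0248 to 0.437.

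EIF3A, the largest subunit, read 11.52 and 11.56 without and 11.75 and 11.66 with rapamycin. EIF3G, an RNA-binding subunit, read 10.03 and 10.11 log2 units on the control arrays, and 10.17 and 10.34 on the rapamycin arrays. In both the rapamycin arrays were the higher pair, by 0.17 for EIF3A (adjusted p = 0.257, limma) and by 0.18 for EIF3G (adjusted p = 0.309) on the log2 scale. EIF3B, a scaffold subunit, gave 9.64 and 9.63 in the control arrays against 9.65 and 9.99 in the rapamycin arrays: rapamycin replicate 1 sat beside the controls and replicate 2 alone stood higher. The like held for EIF3F and EIF3K, where the groups overlapped. EIF3F gave 10.75 and 10.85 without and 10.81 and 11.08 with rapamycin. EIF3K gave 11.59 and 11.66 log2 units on the control arrays, and 11.64 and 11.87 on the rapamycin arrays. In EIF3B, EIF3F and EIF3K the rapamycin arrays lay 0.34, 0.27 and 0.23 apart, against 0.01, 0.10 and 0.07 between the controls. EIF3E, a TOP-encoded subunit, read 12.57 and 12.56 in the control arrays against 12.69 and 12.61 in the rapamycin arrays. EIF3H, another, read 12.29 and 12.29 without and 12.34 and 12.33 with rapamycin. The rapamycin pair was above the controls in both, with log2 fold changes of 0.08 and 0.04. EIF3L and EIF3M stood at log2 fold changes of 0.13 and 0.06. The 2 negative subunits were EIF3I, at -0.07 with overlapping groups, and EIF3J, a loosely bound subunit that helps to take ribosomes apart, at -0.03.

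**Figure D2:**
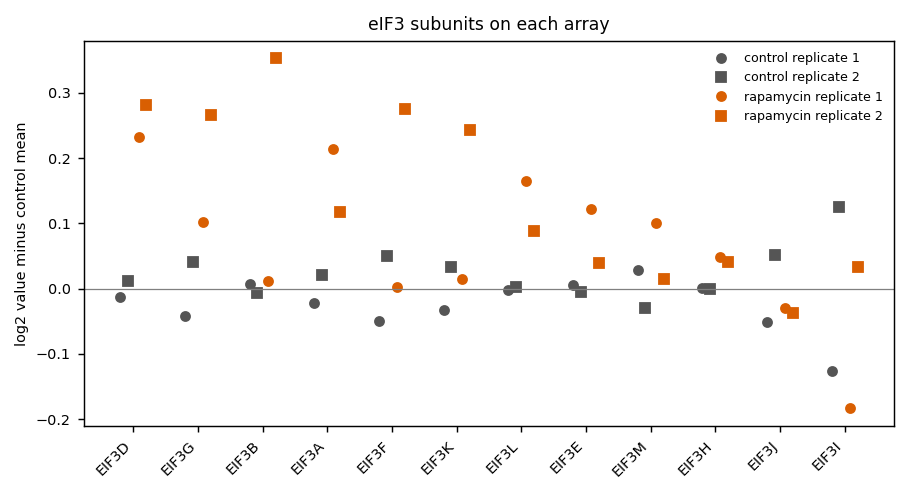
Values of the 12 eIF3 subunits on each of the 4 arrays, as the log2 value minus the mean of the 2 controls, with circles for replicate 1 and squares for replicate 2. EIF3D has both rapamycin arrays above 0.2, whereas EIF3B, EIF3F, EIF3G and EIF3K have only rapamycin replicate 2 there and EIF3A only replicate 1.

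The rapamycin arrays differed from each other in these genes. Without rapamycin replicate 1, when replicate 2 alone stood for the group and was assumed to vary like the controls, 6 members were called higher and 1 lower. The higher ones were EIF3B (log2 fold change 0.35, adjusted p = 0.0128), EIF3D (0.28, adjusted p = 0.0248), EIF3F (0.27, adjusted p = 0.0373), EIF3G (0.27, adjusted p = 0.0430), TPT1 (0.25, adjusted p = 0.0453) and EIF3K (0.24, adjusted p = 0.0484), all from limma. The lower one was the Y-linked EIF1AY. In the same fit 443 genes were called higher and 857 lower among all genes, against 61 and 126 with all arrays. Without rapamycin replicate 2 no member was called, nor without either control. Against the control mean, 26 of 54 members lay above on both rapamycin arrays, 14 below on both and 14 on opposite sides.

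**Figure D3:**
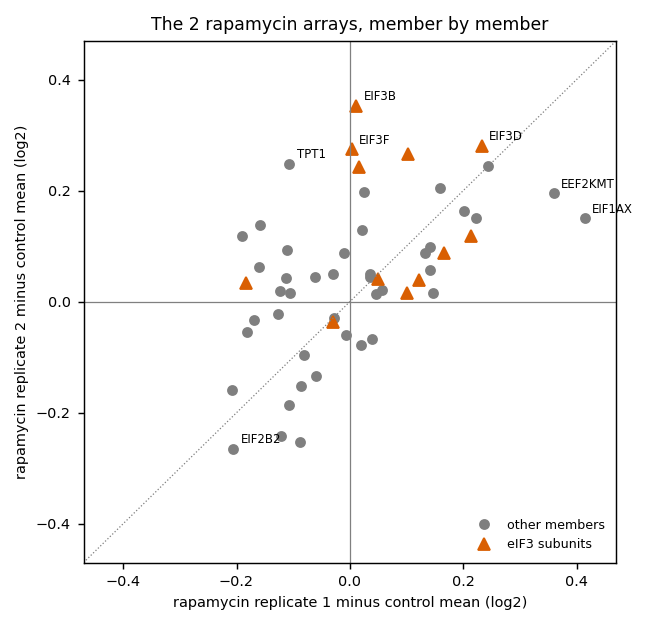
Each of 54 tested members by its log2 value on rapamycin replicate 1 (horizontal) and replicate 2 (vertical), both minus the mean of the 2 controls, with eIF3 subunits as triangles and the dotted line marking equal values. EIF3B, EIF3F and TPT1 lie high on replicate 2 alone, while EIF3D lies near the line.

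eIF2 carries the initiator tRNA in a GTP-bound form, and its alpha subunit is the target of the stress kinases. The log2 fold changes of its 3 subunits differed in sign. EIF2S1, the alpha subunit, read 8.51 and 8.49 log2 units on the control arrays, and 8.29 and 8.34 on the rapamycin arrays, so the rapamycin pair was the lower one (-0.18, SE 0.08, adjusted p = 0.332). EIF2S2, the beta subunit, read 9.34 and 9.28 in the control arrays against 9.53 and 9.46 in the rapamycin arrays, with the rapamycin pair higher (0.19, SE 0.08, adjusted p = 0.279). EIF2S3, the GTP-binding gamma subunit, read 11.79 and 11.88 without and 11.98 and 11.94 with rapamycin, also with the rapamycin pair higher (0.12, adjusted p = 0.406). None of these limma tests passed, and the difference between subunits was not tested. EIF2D, which can place tRNA on the ribosome without eIF2, gave 9.72 and 9.69 log2 units on the control arrays, and 9.86 and 9.91 on the rapamycin arrays. Its rapamycin pair was higher, at a log2 fold change of 0.18 (adjusted p = 0.257, limma). EIF2A, named for a similar activity, stood at -0.03.

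eIF2B recharges eIF2 with GTP. Of its 5 subunits 0 were called, and EIF2B2, the beta subunit, had the lowest log2 fold change of the tested members, at -0.24 (SE 0.09, 95% interval -0.45 to -0.02, adjusted p = 0.269, limma). It read 8.10 and 8.24 in the control arrays against 7.97 and 7.91 in the rapamycin arrays, with no overlap. EIF2B1, the alpha subunit, read 9.88 and 9.90 without and 9.93 and 9.94 with rapamycin, and the other 3, including the catalytic EIF2B5, stood between -0.05 and 0.04 with overlapping groups. EIF2B4 and EIF2B5 had the widest gaps between the controls among the 5, at 0.37 and 0.31.

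The factors that choose the start codon and join the subunits gave 0 called of 7, and in all 7 the groups overlapped, where 46.8% of all genes tested had no overlap. EIF1, which guards start codon choice, read 10.77 and 10.85 log2 units on the control arrays, and 10.68 and 10.83 on the rapamycin arrays. EIF1AX, its partner on the small subunit, read 7.51 and 6.99 in the control arrays against 7.66 and 7.40 in the rapamycin arrays. Its log2 fold change of 0.28 was the highest of the tested members, but the controls alone lay 0.52 apart and the SE was 0.17 (adjusted p = 0.462, limma). EIF5, the GTPase-activating partner of eIF2, stood at 0.08, EIF5B at -0.01, EIF1B at -0.10 and the eIF1A-related EIF1AD at -0.03.

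The mRNA-recruiting group of eIF4 factors and PABPC4 also gave 0 called of 11, with 5 positive and 6 negative values and a median of -0.03. EIF4A2, an RNA helicase, read 11.03 and 10.98 without and 10.90 and 10.82 with rapamycin, with the rapamycin pair lower (-0.15, SE 0.07, adjusted p = 0.331, limma), and the exon junction helicase EIF4A3 stood at -0.03. The scaffolds had log2 fold changes of opposite sign. EIF4G1, which bridges the cap-binding protein and eIF3, read 8.05 and 8.09 log2 units on the control arrays, and 8.09 and 8.27 on the rapamycin arrays. EIF4G2 (DAP5), which lacks the cap-binding protein's site, read 11.24 and 11.20 in the control arrays against 11.13 and 11.07 in the rapamycin arrays. Neither passed, at 0.11 (adjusted p = 0.632) and -0.12 (adjusted p = 0.424, both limma). EIF4B, which stimulates the helicase, read 10.57 and 10.64 without and 10.74 and 10.69 with rapamycin, and EIF4H, which does likewise, stood at -0.07. EIF4ENIF1, the shuttle of eIF4E into the nucleus, had the largest size of difference in the group, reading 7.59 and 7.76 log2 units on the control arrays, and 7.88 and 7.84 on the rapamycin arrays (0.18, adjusted p = 0.423, limma). Among the relatives of the cap-binding protein, EIF4E2 read 7.99 and 7.93 in the control arrays against 7.98 and 8.09 in the rapamycin arrays. EIF4E3 read 8.11 and 8.18 without and 8.04 and 8.16 with rapamycin. Their groups overlapped, as did those of EIF4E1B at 0.04. PABPC4, a poly(A)-binding protein, read 9.65 and 9.71 log2 units on the control arrays, and 9.65 and 9.65 on the rapamycin arrays.

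Elongation factors lay close to 0. EEF2, the translocase, read 12.90 and 12.88 in the control arrays against 12.92 and 12.93 in the rapamycin arrays, a log2 fold change of 0.04 (SE 0.05, 95% interval -0.08 to 0.16, adjusted p = 0.782, limma). The rapamycin pair was the higher one by a margin under 0.1. EEF2K, the kinase that inhibits eEF2 and is itself restrained by mTORC1 signalling, read 7.20 and 7.15 without and 7.42 and 7.42 with rapamycin. Its groups did not overlap, and its log2 fold change of 0.24 (SE 0.10, adjusted p = 0.274, limma) did not pass. EEF1G, a subunit of the factor that reloads eEF1A, read 12.46 and 12.52 log2 units on the control arrays, and 12.46 and 12.54 on the rapamycin arrays. EEF1B2, the exchange subunit, gave 6.97 and 7.03 in the control arrays against 6.81 and 7.12 in the rapamycin arrays. EEF1D, which has the same role, gave 6.05 and 5.93 without and 5.88 and 6.08 with rapamycin. The eEF1A paralogue EEF1A2 gave 7.06 and 7.25 log2 units on the control arrays, and 6.99 and 7.12 on the rapamycin arrays. In all 4 the groups overlapped, at log2 fold changes from -0.10 to 0.01. TPT1, a TOP-encoded protein that binds eEF1 subunits, read 11.04 and 11.11 in the control arrays against 10.97 and 11.33 in the rapamycin arrays, so the 2 rapamycin arrays stood on opposite sides of the controls.

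The 9 TOP-encoded members (EEF1B2, EEF1D, EEF1G, EEF2, EIF3E, EIF3F, EIF3H, EIF4B and TPT1) had 0 called, 7 positive and 2 negative log2 fold changes and a median of 0.04. Their values ran from -0.04 for EEF1B2 to 0.14 for EIF3F. Each 95% interval lay within 1.5-fold of no change, as did those of 12887 of the 14635 genes tested. Groups did not overlap for 4 of them, EEF2, EIF3E, EIF3H and EIF4B, each with rapamycin above. That is 44.4% above and 0 below, beside the 24.9% above and 21.8% below of all genes tested. These counts used the values as deposited and depend on how the arrays were scaled. With the arrays centred on their median, the log2 fold change was 0.01 in place of 0.04 for EEF2 and for EIF3H. It was 0.05 in place of 0.08 for EIF3E and 0.08 in place of 0.11 for EIF4B. Whether the groups stayed apart after centring was not tested. The 46 other tested members had a median of -0.01. Sorted instead by a run at or near the RefSeq start, 17 tested members with it had a median of 0.07 and 26 without it of -0.01. Those with it included EEF2K and EIF1, whose runs end before that start. These medians describe the lists, and their difference was not tested.

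**Figure D4:**
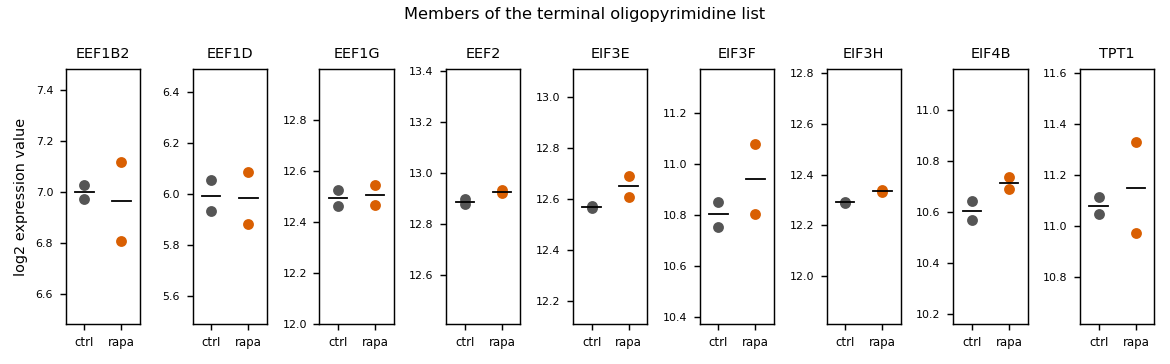
Log2 expression value of the 9 TOP-encoded members on each array, controls (ctrl) against rapamycin (rapa), with points for single arrays and a line for the group mean. Every panel spans 1 log2 unit, and the 2 groups overlap in 5 of the 9 genes.

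eIF5A eases the ribosome over difficult stretches and is the only protein known to carry hypusine. EIF5A read 5.45 and 5.45 without and 5.37 and 5.20 with rapamycin, with the rapamycin pair lower (-0.17, SE 0.13, adjusted p = 0.603, limma). EIF5A2, its paralogue, and EIF5AL1, an EIF5A-like gene of closely similar sequence, lay below the filter minimum and were not tested. EIF5A2 read 3.82 and 4.02 log2 units on the control arrays, and 4.23 and 3.85 on the rapamycin arrays, with overlapping groups. EIF5AL1 read 2.92 and 2.93 in the control arrays against 3.97 and 4.08 in the rapamycin arrays, a difference of 1.10 on the log2 scale or 2.14-fold at values under the 4.86 minimum on every array. With no filter it was the 1 member called (adjusted p = 0.0216, limma over 24241 genes). Whether the EIF5AL1 row also reads EIF5A transcripts was not tested.

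EIF6, which keeps the large subunit from joining too early, read 8.20 and 8.17 without and 8.03 and 8.32 with rapamycin, with the rapamycin arrays on opposite sides of the controls. ETF1, which reads stop codons, gave 8.86 and 8.83 log2 units on the control arrays, and 8.99 and 8.90 on the rapamycin arrays (0.10, adjusted p = 0.610, limma). Its partner GSPT1 gave 9.25 and 9.30 in the control arrays against 9.21 and 9.32 in the rapamycin arrays (-0.01), with overlapping groups. The 4 methyltransferases of elongation factors, which the naming rule also takes in, had no overlap between groups in any of the 4, 1 above and 3 below, and 0 called. Among all genes tested 46.8% had no overlap. EEF2KMT, which methylates eEF2, read 7.32 and 7.45 without and 7.75 and 7.58 with rapamycin, with the rapamycin pair higher (0.28, SE 0.11, adjusted p = 0.253, limma). EEF1AKMT2, which methylates eEF1A, read 9.18 and 9.32 log2 units on the control arrays, and 9.17 and 9.16 on the rapamycin arrays, with the rapamycin pair lower, and EEF1AKMT1 and EEF1AKMT3 also had it lower, at -0.18 and -0.12.

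Among the genes that control these factors, PPP1R15A (GADD34), the stress-induced subunit that brings a phosphatase to eIF2 alpha, fell. It read 7.84 and 7.95 in the control arrays against 7.14 and 7.07 in the rapamycin arrays, which is 1.73-fold lower (-0.79, SE 0.10, adjusted p = 0.00827, limma). Both rapamycin arrays lay below both controls, and the gaps within the groups were 0.11 and 0.08. It was the 1 gene called of the 6 eIF2 alpha kinases and phosphatase subunits, and 0.861% of all genes tested were called lower. Its constitutive relative PPP1R15B stood at -0.04 (adjusted p = 0.865). EIF2AK3 (PERK), the kinase of the endoplasmic reticulum, read 7.71 and 7.77 without and 7.50 and 7.32 with rapamycin (-0.33, adjusted p = 0.161), EIF2AK1 stood at -0.15, EIF2AK2 at 0.06 and EIF2AK4 at 0.07, and none of these passed. Without the mean-variance trend PPP1R15A had an adjusted p of 0.0556. It passed without each array in turn, and without rapamycin replicate 1 the genes called lower on the 5 lists of other translation genes were 6 in place of 1, while over all genes 857 were called lower in place of 126.

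The cap-binding protein and its control gave 0 called of 11 (median 0.06). EIF4E, which binds the cap, read 5.97 and 6.00 log2 units on the control arrays, and 6.17 and 5.94 on the rapamycin arrays (0.07, adjusted p = 0.849, limma). Its mTORC1-controlled inhibitors stood at -0.12 for EIF4EBP1, 0.15 for EIF4EBP2 and -0.01 for EIF4EBP3, and PDCD4, an inhibitor of the eIF4A helicase, had the largest difference of the list at -0.18 (adjusted p = 0.324, limma). LARP1, which holds TOP mRNAs when mTORC1 is off, read 10.41 and 10.43 in the control arrays against 10.37 and 10.43 in the rapamycin arrays (-0.02). Among 11 factors of mRNA binding and ribosome recycling, 8 were tested and 0 called. PAIP1, which links poly(A)-binding protein to eIF4A and eIF3, had the largest difference, reading 8.08 and 8.01 without and 7.71 and 7.70 with rapamycin. The rapamycin pair was lower, and the log2 fold change of -0.34 (SE 0.09, adjusted p = 0.117, limma) did not pass.

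**Figure D5:**
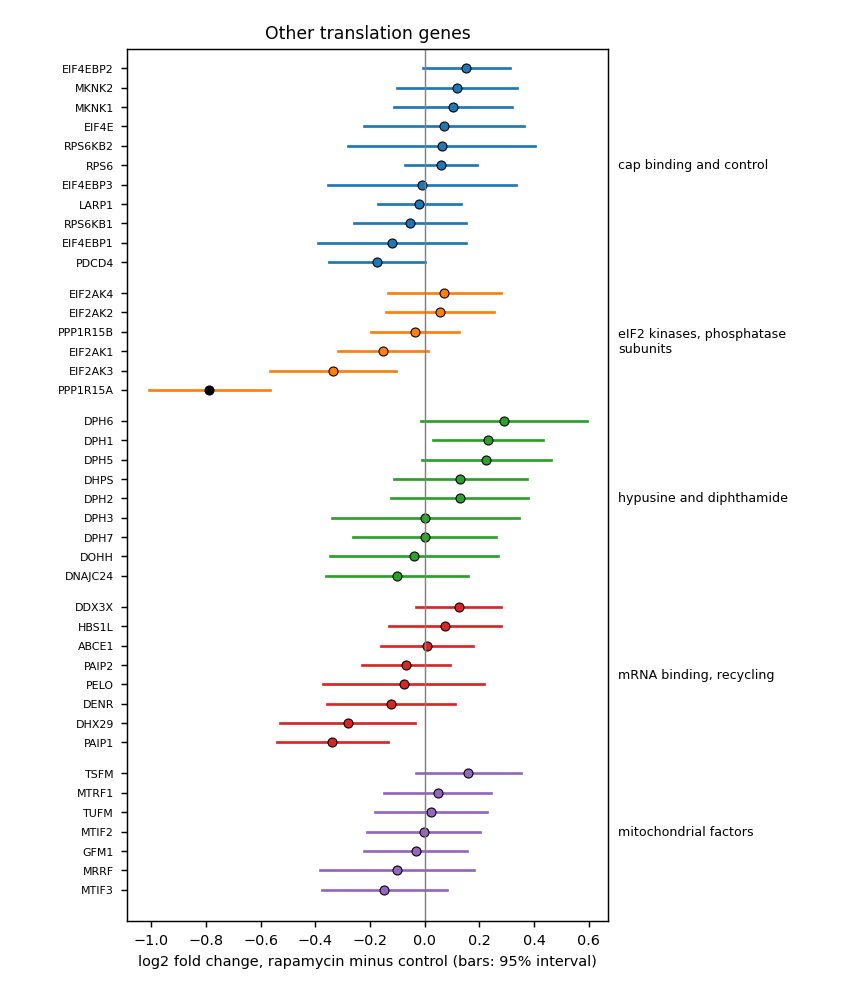
Log2 fold change of 41 tested genes on the 5 lists of other translation genes, rapamycin minus control, with points for the limma estimate and bars for its 95% interval, n = 2 arrays a group. PPP1R15A, the filled black point at -0.79, is the only gene of these lists called.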

How the data were processed

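The authors deposited log2 expression values, with a single value for each row and array. The submitters' processing notes name RMA and Partek, with no versions or roles. That the scale is log2 was inferred from the range of the values. Biotin-labelled DNA was made from whole-transcript amplified total RNA, per the labels' protocols. Neither the build behind the probes nor the handling of probes shared between genes is stated. Groups came from the agent label. Each row carries an Entrez number, and 24195 of 25582 were found in the GRCh38.p14 RefSeq table used for names and gene classes. 3 symbols had more than 1 row, and there the row of highest mean was used. Rows under the 40th percentile of mean signal (4.86 log2 units) were left out, which kept 14635 named genes.

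Rapamycin was compared with control in limma 3.58.1 (R 4.3.3) with group as the only term, moderated with a mean-variance trend, two-sided, with Benjamini-Hochberg adjustment over all genes tested and a call at an adjusted p under 0.05. The fit had 2 residual degrees of freedom and the moderation added 7.27. The number of arrays limits the precision: the median half-width of a 95% interval was 0.27 over all genes and 0.19 over the members. Signals of different genes are not comparable as amounts. The fitting code was tested on simulated data with known changes. Members, lists and settings were chosen with earlier results of these data known. The start-site search was set after the files were seen. Every member could be named, and array values are given for called genes, for the largest difference and the highest signal in each complex, for a fixed set of paralogues (EEF1A2, EIF4A2, EIF5A and EIF5A2, EIF4G1 and EIF4G2, PABPC4, EIF4E2 and EIF4E3) and for the TOP list. The level of EIF1AY, which is Y-linked, is not printed.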

Additional observations from a re-analysis of the deposited data

How the results depend on the processing

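The main setting called 0 members higher and 0 lower. With no filter the number higher was 1 (EIF5AL1). Leaving out each array in turn gave 0 to 6 higher and 0 to 1 lower, and the 6 and the 1 came without rapamycin replicate 1. The other alternatives of filter, moderation, scaling, row choice and gene class each gave 0 and 0. The median log2 fold change of the members was 0.03, and -0.00083 with the arrays centred on their median. It ran from 0.0046 to 0.044 when each array was left out in turn. Of 700 log2 fold changes of single members under the alternatives, 33 changed sign, in none of which the member was called. Over all genes the main counts were 61 higher and 126 lower. They were 17 and 43 with every gene kept, 4 and 13 with no variance trend, 79 and 238 with centred arrays, 116 and 205 with the replicate block, 29 and 47 without control replicate 2, 443 and 857 without rapamycin replicate 1 and 109 and 189 without rapamycin replicate 2. In the paired analysis with the replicate block, 0 members were called higher and 0 lower. Same-numbered arrays share only a number: their deviations from the group means correlated at -0.03. Signals close to background limit EIF5A2 and EIF5AL1. EIF5A and EEF1D were also low among the tested members, and the filter at the 60th percentile (6.08 log2 units) left both out.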

Other observations

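Enzymes that modify the factors gave 0 called of 9, where 1.28% of all genes tested were called. Their median was 0.13, beside 0.01 over all genes tested. Groups overlapped in 7 of the 9, DPH6 among them, and rapamycin was above in the other 2. Over all genes tested 46.8% had no overlap. The enzymes make hypusine on eIF5A (DHPS at 0.13 and DOHH at -0.04) or diphthamide on eEF2. Among the diphthamide genes DPH6 had the largest log2 fold change, 0.29 (SE 0.13, adjusted p = 0.349, limma), reading 7.65 and 7.91 log2 units on the control arrays, and 8.24 and 7.89 on the rapamycin arrays, and DPH1 stood at 0.23 (adjusted p = 0.257) with the rapamycin pair above the controls.

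Mitochondria translate their own mRNAs with separate factors, of which 8 of 9 listed had a row, 7 were tested and 0 called, at a median of 0.00. TSFM, the exchange factor of the mitochondrial elongation factor TUFM, had the largest difference, 0.16 (adjusted p = 0.417, limma), reading 8.14 and 8.11 in the control arrays against 8.26 and 8.30 in the rapamycin arrays. TUFM stood at 0.02 and the initiation factor MTIF2 at 0.00.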
